A study of Mus musculus with 12 samples.

Results

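The genes described here are 10 genes of the NRF2 antioxidant response: Nfe2l2, which encodes NRF2 itself, and the antioxidant and detoxification genes Nqo1, Gsta4, Hmox1, Gclc, Gclm, Txnrd1, Srxn1, G6pdx and Sqstm1. They were picked by gene name as parts of this pathway, with earlier results of these data known, and make up 10 of the 56691 mouse genes counted in the series. All 10 were detected in every library and passed the filter on low counts, so that each has a value in every comparison.

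The cells were R1 embryonic stem cells of the mouse (male, strain 129), grown on gelatin-coated plates, and expression was measured by QuantSeq 3′ mRNA sequencing in 12 libraries. Cells treated for 6 days with 2i alone, with 2i and 25 µM of an inhibitor of MRE11, and with 2i and 50 µM of that inhibitor were set against primed cells, the labels' name for untreated cells at day 0 in medium with serum and LIF. 2i is a pair of inhibitors, of the kinases MEK and GSK3, that brings embryonic stem cells towards the naive state, and MRE11 is the nuclease of a complex that acts at DNA breaks and stalled replication forks. Each group held 3 libraries. The labels do not say whether these were separate cultures, so p-values speak only of the spread among the libraries, and that spread may be technical. No group was kept in serum with LIF until day 6, so 2i and the days in culture cannot be told apart. The labels name neither the MRE11 inhibitor nor a vehicle control.

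NRF2 is a transcription factor of the cap'n'collar family that is made all the time and is destroyed almost as fast. KEAP1 holds it and hands it to a CUL3 and RBX1 ubiquitin ligase, and oxidants or electrophiles that react with KEAP1 cysteines let NRF2 reach the nucleus, where it pairs with a small MAF protein and binds antioxidant response elements. BACH1 competes for the same elements, and a second route of NRF2 destruction runs through phosphorylation by GSK3 and the adaptor β-TrCP. Because NRF2 is controlled mainly as a protein, its activity is not read from its own mRNA, and mRNA is all that was measured here.

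The core of the antioxidant response element was looked for in the promoter windows of the RefSeq annotation (build GRCm38.p6), which run from 250 bases before to 50 bases after a transcription start. The motifs TGACNNNGC and TGAGNNNGC were searched on both strands. Of the 10 genes, 7 have 1 or more windows in that table, 9 windows in all, and 5 of these 9 windows, from 5 genes, held a match. Among all 32851 windows of the table, 27.8% held either motif, 12.4% the first and 17.6% the second. The windows below are those of the genes that were called in the comparison of 2i with primed cells and have a window, for Txnrd1 the 1 with a match. Capitals mark the matches.
Nfe2l2, chr2:75704614-75704913, minus strand: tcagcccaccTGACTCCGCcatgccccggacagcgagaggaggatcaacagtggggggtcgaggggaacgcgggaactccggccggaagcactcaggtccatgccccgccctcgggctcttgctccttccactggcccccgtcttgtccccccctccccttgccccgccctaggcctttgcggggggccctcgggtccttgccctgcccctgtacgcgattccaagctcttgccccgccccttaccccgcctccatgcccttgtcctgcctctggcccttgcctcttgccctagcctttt
Nqo1, chr8:107403156-107403455, minus strand: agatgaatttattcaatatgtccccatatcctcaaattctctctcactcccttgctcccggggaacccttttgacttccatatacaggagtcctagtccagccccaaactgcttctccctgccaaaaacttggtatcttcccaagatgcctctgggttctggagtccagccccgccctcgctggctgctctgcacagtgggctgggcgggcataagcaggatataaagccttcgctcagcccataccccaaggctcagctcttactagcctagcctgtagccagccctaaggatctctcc
Gclm, chr3:122245307-122245606, plus strand: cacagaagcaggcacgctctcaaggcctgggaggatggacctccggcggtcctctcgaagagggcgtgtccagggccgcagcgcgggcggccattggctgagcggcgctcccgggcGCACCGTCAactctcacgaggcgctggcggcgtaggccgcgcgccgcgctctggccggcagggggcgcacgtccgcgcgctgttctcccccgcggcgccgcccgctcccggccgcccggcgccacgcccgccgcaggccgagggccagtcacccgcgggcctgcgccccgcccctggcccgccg
Txnrd1, chr10:82858956-82859255, plus strand: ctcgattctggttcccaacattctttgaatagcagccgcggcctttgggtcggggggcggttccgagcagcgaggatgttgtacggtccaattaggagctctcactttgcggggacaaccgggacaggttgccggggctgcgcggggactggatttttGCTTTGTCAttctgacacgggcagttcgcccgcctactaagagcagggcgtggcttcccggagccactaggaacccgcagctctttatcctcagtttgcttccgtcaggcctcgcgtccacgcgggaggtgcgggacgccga

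The Nfe2l2 window holds the match TGACTCCGC 240 bases before the start. Gclm holds TGACGGTGC, read on the opposite strand, 134 bases before its start. Txnrd1 has 3 windows, of which only the one shown has a match, TGACAAAGC on the opposite strand, 92 bases before the start. The Nqo1 window has none of these letters, which says nothing about elements elsewhere in the gene. Of the genes not shown, Srxn1 had 3 matches, 1 of which, TGAGTCAGC, also contains the AP-1 motif TGAGTCA; G6pdx had 1, TGACTGAGC; and Sqstm1 had none. A match is a run of letters and was not tested as a binding site.

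The libraries held 5894561 to 7060126 counts. Levels below are CPM, library-scaled counts corrected by TMM factors, and changes are log2 fold changes from edgeR with their SE. Reads mark the 3′ ends of transcripts, and levels are compared here between groups and not between genes. The summed level of 10 pluripotent stem cell markers was 4751 to 4982 CPM in 2i, 4775 to 4955 CPM at 25 µM, 4580 to 5169 CPM at 50 µM and 4429 to 5087 CPM in primed cells, although 1 of them, Pou5f1, whose reads may be lost to its pseudogenes, had only 4.53 to 10.9 CPM over all libraries. Markers of fibroblasts and of primitive endoderm were lower in the 6-day groups. The 10 fibroblast markers summed to 14.2 to 19.3 CPM in 2i, 8 to 9.6 CPM at 25 µM, 2.98 to 5.5 CPM at 50 µM and 32.8 to 74.3 CPM in primed cells, and 4 of the 10 passed the filter on low counts; at 0 were Col3a1, Col6a1 and Lum in 2i, Col3a1, Col6a1 and Dcn at 25 µM, Col6a1, Dcn, Lum and Postn at 50 µM and Dcn, Lum and Postn in primed cells. The 10 primitive endoderm markers summed to 74.5 to 118 CPM in 2i, 47 to 51.7 CPM at 25 µM, 36.2 to 44 CPM at 50 µM and 168 to 262 CPM in primed cells, with 5 of the 10 past the filter and Sox7 at 0 in 2i and at 50 µM. The part of these cells in the values below was not tested, and in bulk samples fewer cells of a type and less RNA per cell cannot be told apart.

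**Figure D1:**
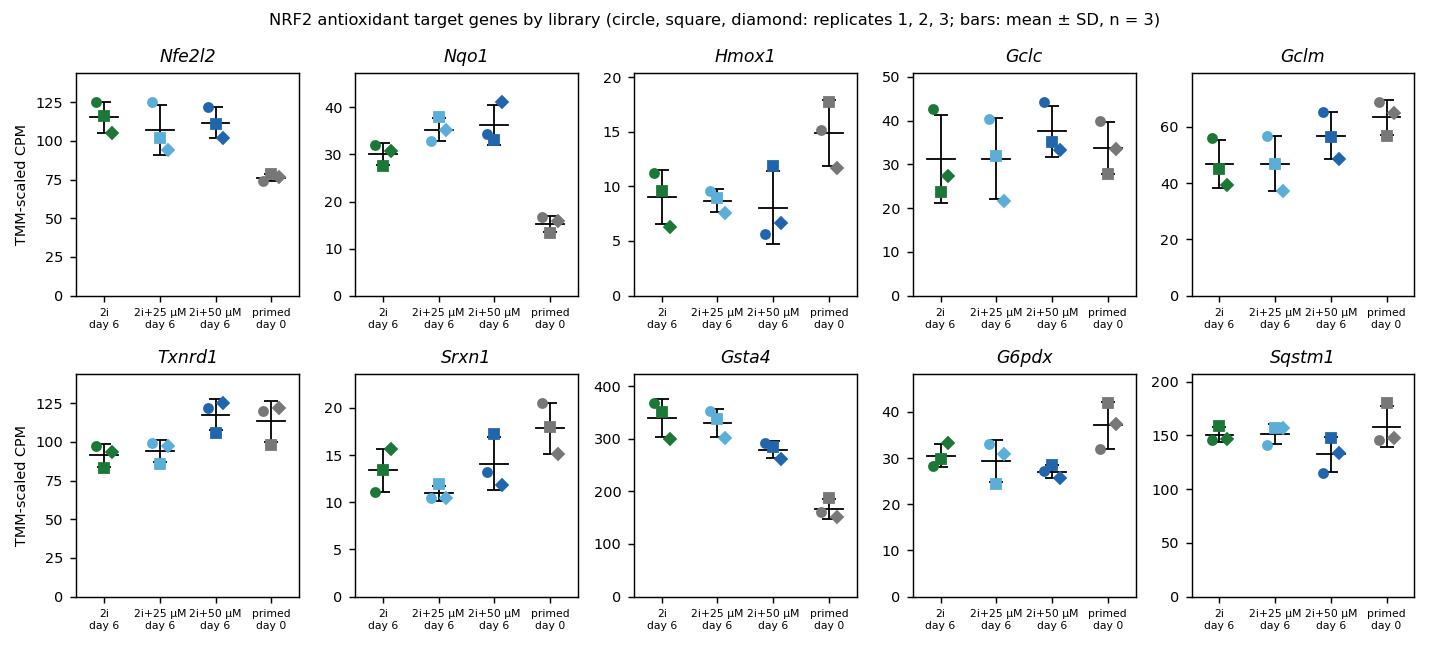
TMM-scaled CPM (y axis, from 0, separate for each gene) of the 10 NRF2 pathway genes in every library, by group (x axis). Circles, squares and diamonds are replicates 1, 2 and 3, and bars give the mean ± SD (n = 3). The 6-day libraries of Nfe2l2, Nqo1 and Gsta4 all lie above the primed ones, and the 50 µM libraries of Txnrd1 lie above those of 2i alone and 25 µM.

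After 6 days of 2i the 10 genes did not move one way. Nfe2l2, Nqo1 and Gsta4 rose, Hmox1, Gclm and Txnrd1 fell, and Gclc, Srxn1, G6pdx and Sqstm1 were not called at an adjusted p below 0.05. Over all 13230 genes tested, 20.0% rose, 20.4% fell and 40.4% were called in either direction, so that 3 rising and 3 falling genes among 10 stand against a background in which changes were common. The median log2 change of the 10 genes was −0.20, against −0.01 over all genes tested. The rises of Nfe2l2, Nqo1 and Gsta4 kept their calls with each of the 6 libraries left out in turn, and each of the 3 falls lost its call in at least 3 of those 6 fits.

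Nfe2l2 (ENSMUSG00000015839, chromosome 2, 75675513 to 75704641, minus strand, GRCm38), the transcription factor of the pathway, had 125, 116 and 105 CPM in the 3 libraries of 2i, against 74, 78.3 and 76.7 CPM in primed cells. The lowest 2i library lay well above the highest primed one. The change was 0.60 ± 0.11 (edgeR adjusted p = 0.000106), a 1.51-fold higher mRNA level in 2i. At 25 µM the libraries had 125, 102 and 94.2 CPM and at 50 µM 122, 111 and 102 CPM, which overlapped those of 2i alone.

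Nqo1 (ENSMUSG00000003849, chromosome 8, 107388225 to 107403206, minus strand) encodes a quinone reductase that is widely used as a readout of NRF2. Its libraries had 32.1, 27.5 and 30.8 CPM in 2i, against 16.6, 13.3 and 15.9 CPM in primed cells. The level was 1.97-fold higher in 2i (0.98 ± 0.13, edgeR adjusted p = 3.85e-06), with no overlap between the groups. With 25 µM inhibitor the libraries had 32.9, 37.9 and 35.1 CPM and with 50 µM 34.4, 33.1 and 41.1 CPM. All 6 inhibitor libraries lay above the 3 of 2i alone, but the differences, 0.23 at 25 µM (95% interval −0.03 to 0.48, edgeR adjusted p = 0.438) and 0.26 at 50 µM (0.01 to 0.52, edgeR adjusted p = 0.154), were not called.

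Gsta4 (ENSMUSG00000032348, chromosome 9, 78182774 to 78209349, plus strand) encodes a glutathione transferase that conjugates 4-hydroxynonenal, a product of lipid peroxidation. It had 368, 351 and 300 CPM in 2i, against 161, 187 and 151 CPM in primed cells. This was the largest rise of the 10 genes, 2.04-fold (1.03 ± 0.10, edgeR adjusted p = 3.22e-08). At 25 µM the libraries, with 354, 337 and 301 CPM, overlapped those of 2i alone. At 50 µM they had 292, 285 and 262 CPM, all below the 3 libraries of 2i alone and the 3 at 25 µM, and all above the primed ones.

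Hmox1 (ENSMUSG00000005413, chromosome 8, 75093621 to 75100589, plus strand) encodes heme oxygenase 1, which breaks down heme and is repressed by BACH1. It had 11.2, 9.57 and 6.29 CPM in 2i, against 15.2, 17.7 and 11.7 CPM in primed cells. The groups did not overlap, but the gene carried few reads, 32 to 105 counts over the 12 libraries, and the fall of 0.71 ± 0.24 on the log2 scale (edgeR adjusted p = 0.0248) was not called without primed replicate 1 (0.0548), primed replicate 2 (0.11) or 2i replicate 3 (0.125). The 25 µM libraries had 9.57, 8.95 and 7.53 CPM and the 50 µM libraries 5.64, 11.9 and 6.64 CPM, which overlapped 2i alone. Hmox1 is also expressed in macrophages and erythroid cells. Markers of those cells summed to 12.1 to 15.6 CPM in 2i, 13 to 19.2 CPM at 25 µM, 10.1 to 11.3 CPM at 50 µM and 15.7 to 19.4 CPM in primed cells, with 1 of 8 past the filter, Adgre1 at 0 in every group and Ptprc at 0 in the 6-day groups; their part in the Hmox1 values was not tested.

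Gclc and Gclm encode the catalytic and the modifier subunit of glutamate-cysteine ligase, which makes the first and rate-limiting step of glutathione synthesis. Gclm (ENSMUSG00000028124, chromosome 3, 122245557 to 122270732, plus strand) had 56.2, 44.9 and 39.4 CPM in 2i, against 68.8, 56.7 and 64.8 CPM in primed cells. The highest 2i library lay just below the lowest primed one. The fall was 0.44 ± 0.15 on the log2 scale (edgeR adjusted p = 0.0287) and was not called without primed replicate 1 (0.0914), primed replicate 3 (0.0684), 2i replicate 2 (0.0867) or 2i replicate 3 (0.127). Its libraries had 56.8, 46.9 and 37.1 CPM at 25 µM, which overlapped 2i alone, and 65.4, 56.5 and 48.7 CPM at 50 µM, which overlapped both 2i alone and primed cells. Gclc (ENSMUSG00000032350, chromosome 9, 77754535 to 77794485, plus strand) averaged 31.2 ± 10.1 CPM in 2i, 31.3 ± 9.3 CPM at 25 µM, 37.5 ± 5.85 CPM at 50 µM and 33.8 ± 6.02 CPM in primed cells (SD, n = 3). Its difference between 2i and primed cells was −0.12, with a 95% interval of −0.66 to 0.42 (edgeR adjusted p = 0.744), so that these libraries leave room for a change in either direction.

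Replicate 1 had the highest level of both Gclc and Gclm in all 4 groups. This was not particular to the pair. Nfe2l2 and Gsta4 were highest in replicate 1 in 3 of the 4 groups. Over all genes tested, the replicate 1 libraries of different groups deviated together from their group means, with correlations of 0.163 to 0.314. Gclc had the largest spread of the 10 genes, a biological coefficient of variation in edgeR of 0.202, which lies at percentile 89.2 of all genes tested, and Hmox1 followed with 0.18 at percentile 83.9. The other 8 genes lay between 0.0882 and 0.125, near the median of 0.109 over all genes tested.

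Txnrd1 and Srxn1 serve the thioredoxin and peroxiredoxin system: thioredoxin reductase 1 keeps thioredoxin reduced, and sulfiredoxin restores overoxidised peroxiredoxins. Txnrd1 (ENSMUSG00000020250, chromosome 10, 82833951 to 82897712, plus strand) had 97.5, 83.1 and 93.2 CPM in 2i, against 120, 97.8 and 122 CPM in primed cells. The groups were separated only by the narrow gap between 2i replicate 1 and primed replicate 2. The fall was 0.31 ± 0.10 on the log2 scale (edgeR adjusted p = 0.0186) and was not called without primed replicate 1 (0.0736), primed replicate 3 (0.0944) or 2i replicate 2 (0.113). Srxn1 (ENSMUSG00000032802, chromosome 2, 152105516 to 152111376, plus strand) averaged 13.4 ± 2.3 CPM in 2i, 10.9 ± 0.839 CPM at 25 µM, 14.1 ± 2.77 CPM at 50 µM and 17.9 ± 2.7 CPM in primed cells (SD, n = 3), with 66 to 132 counts per library. Its difference between 2i and primed cells, −0.42 ± 0.17, missed the threshold (edgeR adjusted p = 0.0578) and was called without primed replicate 3 (0.0312) and without 2i replicate 3 (0.0331).

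G6pdx (ENSMUSG00000031400, chromosome X, 74409483 to 74429194, minus strand) encodes glucose-6-phosphate dehydrogenase, which supplies the NADPH that these reductases use. It averaged 30.5 ± 2.53 CPM in 2i, 29.4 ± 4.51 CPM at 25 µM, 27.1 ± 1.46 CPM at 50 µM and 37 ± 5.01 CPM in primed cells (SD, n = 3). The difference between 2i and primed cells was −0.28 ± 0.13 (edgeR adjusted p = 0.0919) and was called without primed replicate 1 (0.0337). Its retrogene copy G6pd2 had 1 count in 2i, none at either dose and 1 in primed cells, too few to test. Sqstm1 (ENSMUSG00000015837, chromosome 11, 50199366 to 50210827, minus strand), the autophagy receptor p62 that binds KEAP1, averaged 151 ± 7.06 CPM in 2i, 152 ± 9.07 CPM at 25 µM, 133 ± 16.5 CPM at 50 µM and 158 ± 19 CPM in primed cells. Between 2i and primed cells its difference was −0.07, with a 95% interval of −0.28 to 0.14 (edgeR adjusted p = 0.633).

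The values of 3 genes are uncertain because exons overlap those of a neighbour and none of the sources used here gives the strand setting of the counting. Exons of G6pdx overlap Ikbkg on the opposite strand, which had 771 counts over all libraries, against 2368 for G6pdx. Sqstm1 overlaps Mrnip, with 1696 counts against 11347. For Gclm the overlapping genes, Gm17494 on the opposite strand and the pseudogene Gm6061 on its own strand, had 46 and 22 counts, against 4073.

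**Figure D2:**
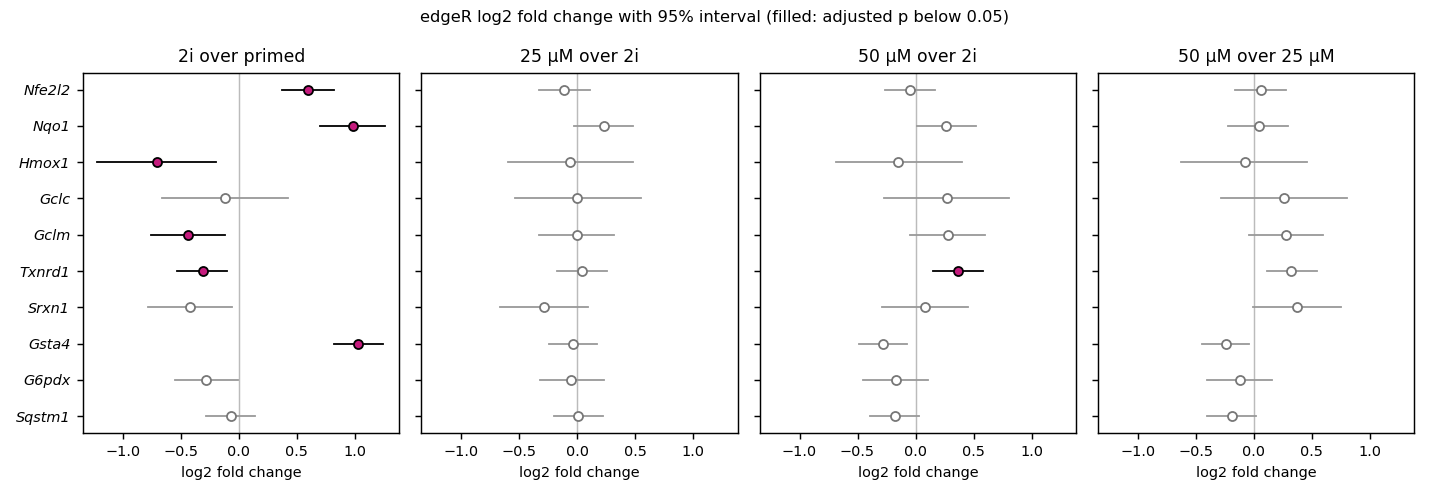
Log2 fold change (x axis) of each of the 10 genes (y axis) in 4 comparisons, with 95% intervals; filled points have an edgeR adjusted p below 0.05. Between 2i and primed cells 3 genes rose and 3 fell; with 25 µM inhibitor against 2i alone no point is filled, and with 50 µM only Txnrd1 is.

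Adding 25 µM of the MRE11 inhibitor to 2i called none of the 10 genes in edgeR, and none reached an unadjusted p below 0.05. DESeq2 and limma voom called 0 as well. The fit with the replicate number as a block also called 0 of the 10, and in that fit 2.48% of all genes rose, 2.26% fell and 4.74% were called in either direction. Of all genes tested 0.454% rose, 0.484% fell and 0.937% were called in either direction, so that 0 of 10 is near the background. The changes ran from −0.29 for Srxn1 (95% interval −0.67 to 0.09) to 0.23 for Nqo1, with a median of −0.02, against 0.00 over all genes tested.

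With 50 µM against 2i alone, 1 of the 10 genes, Txnrd1, rose and none fell, where 7.01% of all genes rose, 8.07% fell and 15.1% were called in either direction. Txnrd1 had 122, 106 and 125 CPM at 50 µM, against 97.5, 83.1 and 93.2 CPM in 2i alone. Every 50 µM library lay above every 2i library, and also above the 99, 85.9 and 97.1 CPM of the 25 µM libraries. The rise was 1.29-fold (0.37 ± 0.10, edgeR adjusted p = 0.0197). It was not called without 2i replicate 2 (0.112), 2i replicate 3 (0.0504), 50 µM replicate 1 (0.0869) or 50 µM replicate 3 (0.112).

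Same-numbered libraries of the 6-day groups deviated together, and the comparisons were also fitted with the replicate number as a block. In that fit 3 of the 10 genes were called at 50 µM against 2i alone, Txnrd1 and Gclm upwards and Gsta4 downwards. The blocked fit also called more genes in all, with 12.1% rising, 12.4% falling and 24.5% called in either direction, so that 3 of 10 is near its background. Gclm differed by 0.28, with an edgeR adjusted p of 0.031 in the blocked fit, against 0.243 without the block. Gsta4 differed by −0.28 ± 0.10, with an edgeR adjusted p of 0.00239 in the blocked fit, against 0.0595 without it. The Gsta4 difference was also called with DESeq2 size factors (edgeR adjusted p = 0.0445), with library totals only (0.0212), with no low-count filter (0.0288), in DESeq2 (0.0425) and without 2i replicate 3 (0.0339). The median change of the 10 genes at 50 µM was 0.02, against 0.01 over all genes tested.

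Between 50 µM and 25 µM edgeR called none of the 10 genes, while 0.181% of all genes were called higher at 50 µM, 0.975% lower and 1.16% in either direction. DESeq2 and limma voom also called 0. The share of all genes at an unadjusted p below 0.05 was not computed. Of the 10 genes 2 passed it, Txnrd1 (0.32 ± 0.10, higher at 50 µM) and Gsta4 (−0.24 ± 0.10, lower at 50 µM). With the replicate block both were called, Txnrd1 with an edgeR adjusted p of 0.00598 and Gsta4 with 0.0313, in a fit that called 1.27% of all genes higher, 2.83% lower and 4.10% in either direction. For both genes the libraries of the 2 doses did not overlap. The share of all genes without overlap was not computed, and both genes were picked by their p in this same comparison, so this adds no separate support.

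Each dose was also set against primed cells, which these comparisons share with that of 2i alone. At 25 µM Nfe2l2 (0.49 ± 0.11), Nqo1 (1.21 ± 0.13) and Gsta4 (0.99 ± 0.10) were higher than in primed cells, and 5 genes fell, where 21.3% of all genes rose, 21.0% fell and 42.3% were called in either direction. The fall of Srxn1, to 10.9 ± 0.839 CPM at 25 µM against 17.9 ± 2.7 CPM in primed cells, a log2 change of −0.71 ± 0.18 (edgeR adjusted p = 0.00246), kept its call with each of the 6 libraries left out in turn. The others did not. Hmox1 (−0.77 ± 0.25) lost its call without primed replicate 2 (0.071) or 25 µM replicate 3 (0.063). Gclm (−0.44 ± 0.15) lost it without primed replicate 1 (0.0827), primed replicate 3 (0.0617), 25 µM replicate 2 (0.0684) or 25 µM replicate 3 (0.129). Txnrd1 (−0.27 ± 0.10) lost it without primed replicate 1 (0.123) or 3 (0.151), without 25 µM replicate 2 (0.177) or 3 (0.053) and with no low-count filter (0.0521). G6pdx (−0.33 ± 0.13) lost it without primed replicate 2 (0.207) or 3 (0.0932), without 25 µM replicate 2 (0.256) or 3 (0.0578), and in 4 of the other fits, with edgeR or DESeq2 adjusted p-values of 0.0505 to 0.0719.

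At 50 µM Nfe2l2 (0.55 ± 0.11), Nqo1 (1.24 ± 0.13) and Gsta4 (0.75 ± 0.10) were again higher than in primed cells, and 2 genes fell, where 22.6% of all genes rose, 21.7% fell and 44.3% were called in either direction. Hmox1 fell by 0.86 ± 0.25 on the log2 scale, a call kept with each of the 6 libraries left out in turn, although 50 µM replicate 2 overlapped the primed range. The fall of G6pdx (−0.45 ± 0.13, edgeR adjusted p = 0.00822) lost its call without primed replicate 2 (0.0579). Sqstm1 differed by −0.25 ± 0.10 and missed the threshold (edgeR adjusted p = 0.0508); it was called without primed replicate 1 (0.0338), primed replicate 3 (0.0442) or 50 µM replicate 2 (0.0221), with DESeq2 size factors (0.0312) and in DESeq2 (0.0476). Txnrd1 at 50 µM differed from primed cells by 0.05, with a 95% interval of −0.16 to 0.27 (edgeR adjusted p = 0.705), and Gclm by −0.16, with an interval of −0.48 to 0.16 (edgeR adjusted p = 0.418).

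The regulators of NRF2 changed in both directions after 2i. Of 15 regulators and partners tested, 4 rose and 3 fell, 46.7% against 40.4% of all genes, with a median of 0.14. Keap1, the sensor that marks NRF2 for destruction, had 47.1 ± 3.32 CPM in 2i, against 30.7 ± 4.05 CPM in primed cells (0.61 ± 0.12, edgeR adjusted p = 0.00036). Bach1, the competing repressor, had 24.3 ± 4.22 CPM in 2i, against 13.4 ± 1.26 CPM in primed cells (0.86 ± 0.17, edgeR adjusted p = 0.000264). Btrc, which encodes β-TrCP, rose by 0.85 ± 0.14. Nfe2, a cap'n'collar factor best known from blood cells, was also higher (2.60 ± 0.47) but carried few reads, with 3.34 ± 0.325 CPM in 2i, against 0.544 ± 0.403 CPM in primed cells. The small MAF partners Maff (−1.47 ± 0.25) and Mafk (−1.33 ± 0.33) fell, as did Dpp3 (−0.35 ± 0.08), whose product binds KEAP1 in human cells. Maff and Mafk also carried few reads, with 70 and 36 counts summed over the 3 libraries of 2i. Nfe2l1, the related factor NRF1, had 161 ± 28.6 CPM in 2i, against 137 ± 13.6 CPM in primed cells, and was not called (edgeR adjusted p = 0.218). Each of the 7 called genes kept its call with each library left out in turn.

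With 50 µM inhibitor 3 of these 15 genes rose and 3 fell against 2i alone, 40% against 15.1% of all genes. Rbx1, the RING subunit of the KEAP1 ligase, had 190 ± 10 CPM at 50 µM, against 138 ± 9.6 CPM in 2i (0.46 ± 0.09, edgeR adjusted p = 0.00113); its reads may be shared with the pseudogene Rbx1-ps. Bach2, a relative of Bach1, had 0.74 ± 0.27 CPM at 50 µM, against 2.67 ± 0.0675 CPM in 2i (−1.80 ± 0.46, edgeR adjusted p = 0.0118). It carried few reads, 14 counts summed over the 3 libraries at 50 µM. Rbx1 and Bach2 kept their calls with each library left out in turn. Keap1 had 62.2 ± 6.87 CPM at 50 µM, against 47.1 ± 3.32 CPM in 2i (0.40 ± 0.12, edgeR adjusted p = 0.0252), which was not called without 2i replicate 2 (0.108), 2i replicate 3 (0.0815), 50 µM replicate 1 (0.112) or 50 µM replicate 3 (0.137). Bach1 (−0.09 ± 0.16, edgeR adjusted p = 0.745) and Nfe2l1 (−0.34 ± 0.15, edgeR adjusted p = 0.134) were not called. With single libraries left out, only 3 to 4 of the 15 were called, and 3 without 2i replicate 2, 50 µM replicate 1 or 50 µM replicate 3. Over all genes those fits called 1217 to 1668, against 1994 with all libraries. With the replicate block 4 of the 15 rose and 4 fell, in a fit that called 24.5% of all genes.

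**Figure D3:**
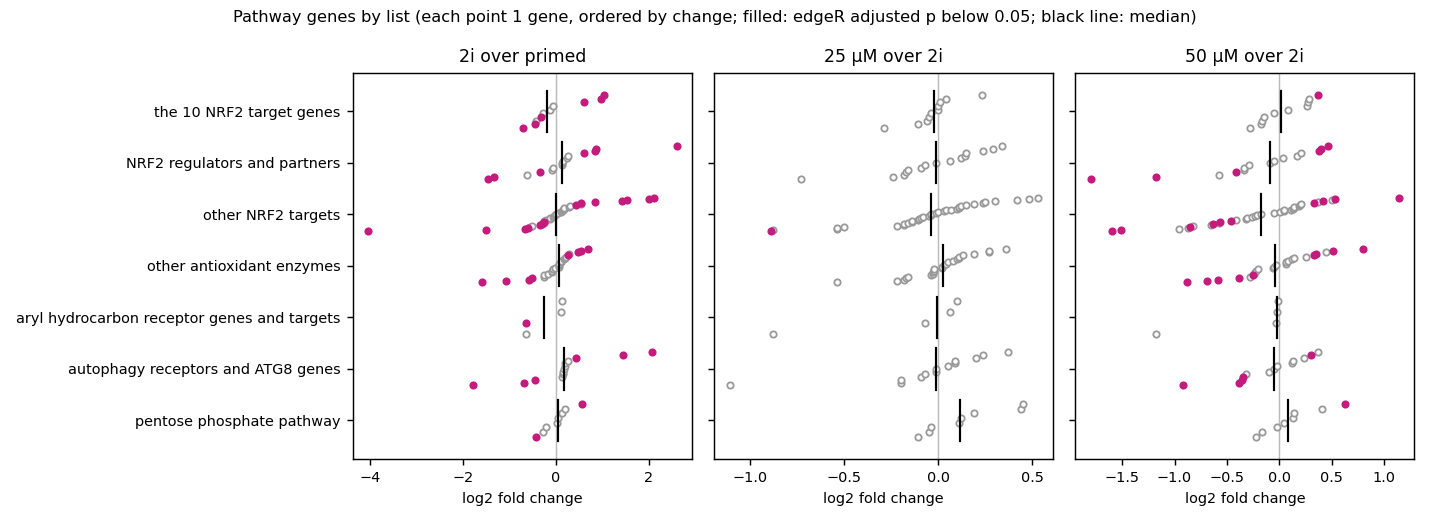
Log2 fold change (x axis, own scale for each panel) of the 10 genes and of 6 further lists (y axis) for 2i over primed cells, 25 µM over 2i and 50 µM over 2i. Each point is 1 gene, filled where the edgeR adjusted p is below 0.05, and black lines are medians. In 2i over primed cells filled points lie on both sides of 0 in every list but that of the aryl hydrocarbon receptor, and in 25 µM over 2i 1 point, Blvra, is filled.

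Among 35 further NRF2 targets that could be tested, of 44 listed, 7 rose and 7 fell after 2i, 40% against 40.4% of all genes, with a median of 0.01. The rises with the smallest p were those of Gss, Idh1 and Me1. Gss, glutathione synthetase, had 65 ± 6.9 CPM in 2i, against 15 ± 2.68 CPM in primed cells (2.12 ± 0.15, edgeR adjusted p = 2.04e-10). Idh1, the cytosolic isocitrate dehydrogenase, rose by 1.52 ± 0.09, and Me1, malic enzyme 1, by 1.42 ± 0.15. Mgst1, a membrane-bound glutathione transferase, had 0.205 ± 0.0885 CPM in 2i, against 3.64 ± 0.981 CPM in primed cells (−4.03 ± 0.56). It carried few reads, 4 counts summed over the 3 libraries of 2i and 69 in primed cells. Gstm5, one of a family of closely related glutathione transferase genes that may share reads (−1.50 ± 0.31), and the aldose reductase Akr1b3 (−0.66 ± 0.16) also fell. The genes named here kept their calls with each library left out in turn, and 9 of the list were called without 2i replicate 3.

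With 25 µM inhibitor 1 of these 35 targets was called, 2.86% against 0.937% of all genes. Blvra, biliverdin reductase, which acts after heme oxygenase, had 6.52 ± 0.711 CPM, against 12.1 ± 1.29 CPM in 2i (−0.89 ± 0.21, edgeR adjusted p = 0.0434), a call lost with each of the 6 libraries left out in turn (0.0943 to 0.16). With 50 µM 4 rose and 6 fell, 28.6% against 15.1% of all genes, with a median of −0.18. Akr1b8, an aldo-keto reductase of a family with close copies, had 15.4 ± 2.36 CPM at 50 µM, against 7.04 ± 1.45 CPM in 2i (1.14 ± 0.20, edgeR adjusted p = 0.000683). Blvra had 6.68 ± 1.09 CPM at 50 µM, against 12.1 ± 1.29 CPM in 2i (−0.85 ± 0.21, edgeR adjusted p = 0.00826). These calls were kept with each library left out in turn. The count of 10 depended on the libraries and the fit, with 2 called without 2i replicate 2, 4 without 50 µM replicate 3, and 7 rising and 10 falling with the replicate block, where 24.5% of all genes were called. With that block the 25 µM comparison called 2 rising and 1 falling, against 4.74% of all genes. For 50 µM against 25 µM the block called 2 rising and 2 falling, against 4.10% of all genes. There the fit without it called 0, as did DESeq2 and limma voom. In the fit without it 12 had an unadjusted p below 0.05, a threshold at which the share of all genes was not computed.

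Other antioxidant enzymes, of which 24 could be tested, also split after 2i, with 4 rising and 4 falling, 33.3% against 40.4% of all genes. Sod2, the mitochondrial superoxide dismutase, had 353 ± 10.2 CPM in 2i, against 217 ± 14.4 CPM in primed cells (0.70 ± 0.08, edgeR adjusted p = 4.48e-07). Catalase (Cat) rose by 0.55 ± 0.11 and Gpx1 by 0.47 ± 0.13. Gpx4, the peroxidase of membrane lipid peroxides, had 52.8 ± 2.01 CPM in 2i, against 159 ± 14 CPM in primed cells (−1.59 ± 0.12, edgeR adjusted p = 1.32e-09); its reads may be shared with the pseudogene Gpx4-ps2. Mitochondrial thioredoxin Txn2 (−0.57 ± 0.09) and the thioredoxin inhibitor Txnip (−1.08 ± 0.15) fell. Each of these 6 kept its call with each library left out in turn.

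At 50 µM 4 of the 24 rose and 5 fell against 2i alone, 37.5% against 15.1% of all genes. Sod2 had 269 ± 15.2 CPM at 50 µM, against 353 ± 10.2 CPM in 2i (−0.39 ± 0.08, edgeR adjusted p = 0.00247). The secreted peroxidase Gpx3 had 16.2 ± 4.5 CPM at 50 µM, against 30 ± 1.76 CPM in 2i (−0.88 ± 0.16, edgeR adjusted p = 0.000604), and glutaredoxin Glrx had 23.9 ± 1.3 CPM, against 36.1 ± 5.38 CPM (−0.59 ± 0.12, edgeR adjusted p = 0.002). All 3 kept these calls with each library left out in turn. Among the rises was Txn2, which had fallen in 2i (0.33 at 50 µM against 2i, edgeR adjusted p = 0.0179). That call was lost without 2i replicate 1 (0.119), 50 µM replicate 1 (0.0643) or 50 µM replicate 3 (0.0719), and with library totals only (0.0732). The count of 9 became 3 to 8 without single libraries. It was 5 without 2i replicate 2, 2i replicate 3 or 50 µM replicate 3, 3 without 50 µM replicate 1 and 5 with library totals only. The replicate block called 6 rising and 6 falling, against 24.5% of all genes. Glrx (−0.57 ± 0.12) and Gpx3 (−0.65 ± 0.16) were also lower at 50 µM than at 25 µM, 8.33% of the list against 1.16% of all genes, calls that were lost for Glrx without 25 µM replicate 2 (0.0829), 25 µM replicate 3 (0.094), 50 µM replicate 1 (0.0841) or 50 µM replicate 2 (0.075), and for Gpx3 without 5 of the 6 libraries (0.065 to 0.181), all but 50 µM replicate 2. At 25 µM against 2i alone edgeR, DESeq2 and limma voom called 0 of the 24. In edgeR 3 had an unadjusted p below 0.05, for which the share of all genes was not computed. With the replicate block 1 rose, in a fit that called 4.74% of all genes.

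The list of autophagy receptors and ATG8 genes also holds the autophagy regulator Tfe3. It gave 3 rises and 3 falls among 13 after 2i, 46.2% against 40.4% of all genes. Calcoco2, which encodes a receptor known as NDP52 from human cells, had 560 ± 54.4 CPM in 2i, against 134 ± 14.3 CPM in primed cells (2.06 ± 0.11, edgeR adjusted p = 1.49e-12). The ATG8 genes Gabarapl2 (1.45 ± 0.12) and Map1lc3b (0.44 ± 0.11) rose, and the receptor Optn (−1.79 ± 0.30) and the autophagy regulator Tfe3 (−0.68 ± 0.16) fell, all with calls kept with each library left out in turn. Optn carried few reads, 37 counts summed over the 3 libraries of 2i. At 50 µM Calcoco2 fell to 297 ± 32.5 CPM, against 560 ± 54.4 CPM in 2i alone (−0.92 ± 0.10, edgeR adjusted p = 3.76e-06) and 528 ± 31.8 CPM at 25 µM (−0.83 ± 0.10, edgeR adjusted p = 0.000113), and both calls were kept with each library left out in turn. Against 2i alone 1 of the 13 rose and 4 fell at 50 µM, 38.5% against 15.1% of all genes. This count of 5 became 3 without 2i replicate 3 and 2 without 2i replicate 2 or any 1 of the 50 µM libraries. In that comparison the replicate block called 2 rising and 4 falling, against 24.5% of all genes. Calcoco2 was the 1 gene of the 13 called between 50 µM and 25 µM, 7.69% against 1.16% of all genes, where the replicate block called 2 of the 13 and 4.10% of all genes.

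The pentose phosphate pathway, in which G6pdx acts first, and the aryl hydrocarbon receptor genes, which share detoxification targets with NRF2, made up the smallest of the further lists. Of 8 pentose phosphate genes tested, a list that holds G6pdx and shares Pgd, Taldo1 and Tkt with the further targets, 1 rose and 1 fell after 2i, 25% against 40.4% of all genes. Against primed cells 3 rose and 2 fell at 25 µM, 62.5% against 42.3% of all genes, a count of 5 that became 3 without primed replicate 3 or 25 µM replicate 2, and 2 rose and 2 fell at 50 µM, 50% against 44.3% of all genes. Pgls, 6-phosphogluconolactonase, fell by 0.42 ± 0.10, a call kept with each library left out in turn. H6pd, the enzyme of the endoplasmic reticulum that parallels G6pdx, rose by 0.56 ± 0.19 in 2i, but was not called without primed replicate 1 (0.076), primed replicate 2 (0.0676), 2i replicate 2 (0.0717), 2i replicate 3 (0.104) or in DESeq2 (0.0562). At 50 µM it rose by 0.63 ± 0.17 against 2i alone, as the 1 call among the 8 genes (12.5% against 15.1% of all genes), and was not called without 2i replicate 1 (0.113), 50 µM replicate 2 (0.0561) or 50 µM replicate 3 (0.0679). Of 4 aryl hydrocarbon receptor genes tested, Tiparp, a target of the receptor, fell after 2i (−0.65 ± 0.20, edgeR adjusted p = 0.0146), but not without primed replicate 1 (0.0886) or 2i replicate 2 (0.0719). That is 25% of the 4 against 40.4% of all genes, and against primed cells 2 of the 4 fell at each dose, 50% against 42.3% of all genes at 25 µM and 44.3% at 50 µM. None of the 4 was called by edgeR, DESeq2 or limma voom at 25 µM or 50 µM against 2i alone. An unadjusted p below 0.05 was reached by 0 and 1 of them, with no share of all genes computed.

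Of the other lists at 25 µM against 2i alone, none of the 3 tools (edgeR, DESeq2, limma voom) called any of the 15 regulators, the 13 autophagy genes or the 8 pentose phosphate genes. Of these lists 2, 3 and 2 genes had an unadjusted p below 0.05 in edgeR, and the share of all genes there was not computed. With the replicate block 2 of the regulators rose, where 2.48% of all genes did.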

How the data were processed

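Oligo-dT primed 3′ libraries (QuantSeq V2 FWD, per the labels' protocols) were sequenced from 12 samples. The values used are raw counts per gene, deposited by the authors as 1 table per library, with 0 columns of per-sample values left unmapped. The submitters' processing notes name FastQC, STAR, DESeq2 1.32.0 and the build GRCm38; for the counting tool, its strand setting and the annotation release: not given in the sources used here. Each table held 56805 features, of which 114 were spike-ins with 2 counts in all, left out here. Symbols and positions came from GENCODE vM21 (GRCm38) for 52073 of 56691 IDs, carrying 98.4% of counts.

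The test was edgeR's quasi-likelihood F test (edgeR 4.0.16, R 4.3.3), with TMM scaling, filterByExpr, robust dispersion and a single fit of all 12 libraries. Benjamini-Hochberg adjustment ran over 13230 genes, and a gene was called below an adjusted p of 0.05, whatever its fold. Shares of all genes were computed at that adjusted threshold only, so counts at an unadjusted p below 0.05 stand without a background. SEs are the log2 change over the square root of F. Levels are TMM-scaled CPM, given by library in the order of replicates 1, 2 and 3. Chi-square per degree of freedom between replicates was 2.48 to 11.7, so none was treated as a duplicate. The script was tested on simulated counts.

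Alternatives were the replicate block, DESeq2 size factors, library totals only, no low-count filter, DESeq2 1.42.0, limma voom 3.58.1, the 2 groups compared alone, and each library left out. Groups share replicate numbers in the labels. The deviations of same-numbered libraries from their group means correlated above 0.1 in every pair between 25 µM and 2i (0.314, 0.168 and 0.155), 50 µM and 2i (0.249, 0.115 and 0.139) and 50 and 25 µM (0.286, 0.134 and 0.162). In these comparisons the blocked counts stand beside the counts they change.

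The 10 genes and all lists were chosen with earlier results of these data known. Values per library are given for genes called in a comparison of 2i with primed cells or of the 6-day groups. From each further list up to 3 called genes with the smallest p in each direction were named, leaving out those whose call was lost without a library unless a count turned on them, and Keap1, Bach1, Nfe2l1 and G6pd2 whatever their values.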

Additional observations from a re-analysis of the deposited data

How the results depend on the processing

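Over 780 values of the 10 genes under the alternatives, 726 kept their side of the threshold, 34 calls were lost, 20 were gained and none reversed. Among those 726, 43 values that were called in neither fit changed sign, at a size of 0.00 to 0.23 (log2). The count of the 10 genes called at 50 µM against 2i (1) was 3 with the replicate block, 2 with DESeq2 size factors, library totals only, no low-count filter or DESeq2, and 0 to 1 without single libraries; at 50 against 25 µM (0) it was 2 with the block. Without single libraries it was 4 to 6 for 2i against primed cells (6), 4 to 8 for 25 µM (8) and 4 to 7 for 50 µM (5) against primed cells. Of all genes, 124 were called at 25 µM against 2i, 627 with the block, 268 with no low-count filter and 29 to 101 without single libraries. At 50 µM against 2i these were 1994, 3240 with the block and 1217 to 1668 without single libraries, and at 50 against 25 µM 153, 542 with the block, 329 with no low-count filter and 38 to 203. After 2i, further NRF2 targets called (14) were 9 to 13 without single libraries. Aryl hydrocarbon receptor genes (1) were 2 with no low-count filter or DESeq2 and 1 to 2 without single libraries, and pentose phosphate genes (2) were 1 with DESeq2 and 1 to 2 without single libraries. For these changes of count the cause was not tested. In comparisons with primed cells same-numbered libraries did not all correlate (2i: 0.244, 0.136 and 0.0908; 25 µM: 0.163, 0.0767 and 0.0115; 50 µM: 0.175, 0.0511 and 0.111); there the replicate block gave 7 called genes for 2i (6294 of all genes, against 5346 without it), adding Srxn1 (−0.42, edgeR adjusted p = 0.0294), and added Sqstm1 at 50 µM (−0.25, edgeR adjusted p = 0.00435). Of 390 list counts in the other comparisons, 44 moved by over 1.5 times. Of the 10 genes Hmox1 and Srxn1 had the fewest reads, at 32 to 105 and 66 to 132 counts per library, and their values carry the widest counting error of the 10.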
